A study of Homo sapiens with 6 samples.

Results

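Integrins and laminins were described in liver metastases of the human colorectal cancer line SW480, as 36 genes (25 integrin chains and 11 laminin chains) among the 58884 gene identifiers counted. The genes were listed by family membership, with no threshold on a measured value, but the families were picked with earlier results of these data known. All 36 had a row in the count table. In the sgITPR3 group (3 libraries) the SW480 cells carried a guide RNA against ITPR3, the gene of the type 3 inositol trisphosphate receptor, and the labels state that its loss had been checked by Western blot. In the sgCtrl group (3 libraries) the cells carried a control guide. Cells of both groups had reached the liver of NSG mice by portal injection. NSG mice lack functional lymphocytes, and their livers still hold mouse hepatocytes, endothelium and stroma. Tumour cells were recovered from collagenase-digested livers by a density gradient and depletion of mouse cells. The labels name neither the animal behind each library nor the number of guides or clones, so each p-value reflects no more than how these 6 libraries varied. Polyadenylated RNA was read as tags from transcript 3' ends.

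Integrins are cell surface receptors built of an alpha and a beta chain, which bind matrix proteins outside the cell and the actin or keratin cytoskeleton inside it. Laminins are trimers of an alpha, a beta and a gamma chain and are the main adhesive proteins of basement membranes. LM332 (LM stands for laminin) is the epithelial form. It contains the chains encoded by LAMA3 and LAMB3 and anchors epithelia through integrin α6β4 in hemidesmosomes and through integrin α3β1. LM511 and LM521 contain the LAMA5 chain, joined by the shared chains encoded by LAMB1, LAMB2 and LAMC1.

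Totals ranged from 19140055 to 23943797 counts per library, and 15804 genes had enough counts to be tested. Levels are CPM, counts scaled to a common library size. They are not divided by transcript length and are compared only within a gene, and 3 counts, taken as the floor, were 0.121 to 0.161 CPM. ITPR3 was at 39.4, 41.0 and 46.2 CPM in sgITPR3 libraries, against 107.5, 93.9 and 94.2 CPM in sgCtrl libraries, although tags near the 3' end need not cover the edited site. All marker levels given here are of human gene rows, while host cells in these livers are mouse cells. How mouse reads were handled is not given, so the levels do not measure how many host cells remained. Of 6 colorectal epithelial markers, 5 were tested. EPCAM, at 263 to 330 CPM in sgITPR3 libraries and 342 to 420 CPM in sgCtrl libraries, and KRT8 were lower (edgeR adjusted p = 0.0249 and 0.0168), CDX2 was higher (log2 fold change 0.34, edgeR adjusted p = 0.0115), KRT18 and CDH1 did not pass, and KRT20 had at most 9 counts in any library. Of 7 hepatocyte markers, summed at 147 to 293 CPM in sgITPR3 libraries and 66.0 to 245 CPM in sgCtrl libraries, 6 were tested. The transcript ALB did not pass and overlapped between groups, at 231.6, 152.6 and 111.5 CPM in sgITPR3 libraries and 33.8, 169.7 and 21.6 CPM in sgCtrl libraries. TTR, FGB and TF did not pass either, with fold changes of 2.02 to 2.22, and APOC3 had no counts. APOA1 was higher with overlapping groups (log2 fold change 1.06, edgeR adjusted p = 0.0414), and SERPINA1 was lower without overlap (log2 fold change -1.64, edgeR adjusted p = 1.51e-07).

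Of the 36 integrin and laminin genes, 22 were tested. In sgITPR3 metastases, 8 of them were lower, 7 were higher and 7 did not pass (edgeR quasi-likelihood test, adjusted p under 0.05 over all genes). The remaining 14 had too few counts, and 2 of these, ITGB3 and LAMB4, had no count in any library. Over all genes tested, 23.5% passed, 11.9% lower and 11.6% higher in sgITPR3, against 68.2% of the tested integrin and laminin genes. Since earlier results were known when the families were picked, the difference in share is a description. A gene can enter the test through a high level in a single group, so the share was also read among genes averaging 5 CPM or more over the 6 libraries. There 12 of 18 integrin and laminin genes passed, 7 lower and 5 higher, beside 26.9% of all genes at that level (15.7% lower and 11.2% higher). The median log2 fold change of the 22 tested genes was 0.02, and that of all genes tested was 0.0009. Their median absolute log2 fold change was 0.53, against 0.21 over all genes tested. The groups did not overlap for 16 of the 22, a separation seen for 39.3% of all genes tested. Tissue was measured in bulk, so fewer cells of a type and less RNA per cell cannot be told apart.

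The 2 listed chains of LM332 were both lower in sgITPR3 metastases. LAMB3 (ENSG00000196878, chromosome 1, 209614870 to 209652466, minus strand), which encodes the beta 3 chain, was at 28.98, 29.8 and 29.7 CPM in sgITPR3 libraries and 135, 114.5 and 135 CPM in sgCtrl libraries. The 3 sgITPR3 libraries lay within 1 CPM of each other and far below every sgCtrl library. The level was 4.34-fold lower (log2 fold change -2.12 ± 0.0811 SE, adjusted p = 9.10e-10 by edgeR). LAMA3 (ENSG00000053747, chromosome 18, 23689443 to 23956222, plus strand), which encodes the alpha 3 chain, was at 29.3, 27.6 and 24.02 CPM in sgITPR3 libraries and 53.7, 50.8 and 49.1 CPM in sgCtrl libraries. The groups did not overlap, and LAMA3 was 1.89-fold lower (log2 fold change -0.92 ± 0.0886 SE, adjusted p = 4.18e-06 by edgeR). Both falls passed under every one of the 13 alternative settings, with log2 fold changes from -2.20 to -1.98 for LAMB3 and from -0.99 to -0.85 for LAMA3.

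The shared chains of the other laminins were higher. LAMB1 (ENSG00000091136, chromosome 7, 107923799 to 108003255, minus strand), which encodes the widely used beta 1 chain, was at 141, 148.5 and 132 CPM in sgITPR3 libraries and 87.4, 104 and 85.6 CPM in sgCtrl libraries, without overlap (log2 fold change 0.60 ± 0.0827 SE, adjusted p = 1.16e-04 by edgeR). LAMC1 (ENSG00000135862, chromosome 1, 183023460 to 183145592, plus strand), the gamma 1 chain gene, was at 93.6, 102 and 93.9 CPM in sgITPR3 libraries and 77.6, 81.5 and 85.2 CPM in sgCtrl libraries (log2 fold change 0.24 ± 0.0696 SE, adjusted p = 0.02 by edgeR). LAMB2 (ENSG00000172037, chromosome 3, 49121114 to 49133118, minus strand), the beta 2 chain gene, was at 43.2, 45.4 and 42.9 CPM in sgITPR3 libraries and 37.0, 38.9 and 33.9 CPM in sgCtrl libraries (log2 fold change 0.26 ± 0.0803 SE, adjusted p = 0.0297 by edgeR). These last 2 rises were small and close to the threshold. Adjusted for the level of ALB, LAMB2 changed by 0.18 (edgeR adjusted p = 0.311) and LAMC1 by 0.26 on the log2 scale (edgeR adjusted p = 0.0783), so neither passed. LAMB2 lost its call when any single library except sgCtrl replicate 2 was left out (edgeR adjusted p up to 0.131, without sgITPR3 replicate 2), and LAMC1 without sgITPR3 replicate 2 (edgeR adjusted p = 0.123) or sgCtrl replicate 1 (edgeR adjusted p = 0.0771). LAMA5 (ENSG00000130702, chromosome 20, 62307955 to 62367312, minus strand), the alpha 5 chain gene, did not pass (log2 fold change -0.18 ± 0.0706 SE, adjusted p = 0.0835 by edgeR), at 110.5, 114.5 and 124 CPM in sgITPR3 libraries and 135, 135 and 125 CPM in sgCtrl libraries. All 3 sgITPR3 values for LAMA5 lay below the sgCtrl values, the nearest by less than 1 CPM.

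**Figure D1:**
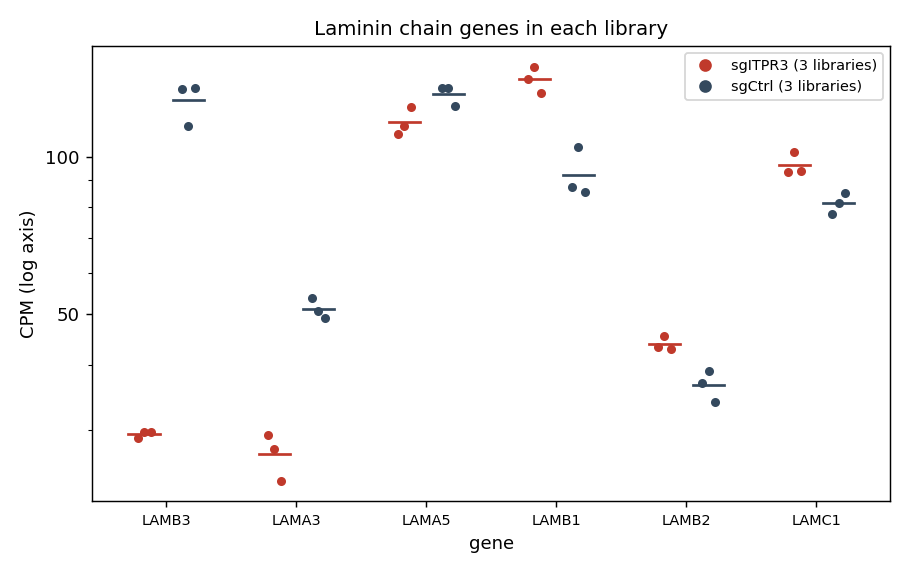
Levels of the 6 tested laminin genes, in CPM on a log axis, with a point per library and a line at each group mean (sgITPR3 left, sgCtrl right). LAMB3 and LAMA3 are lower in sgITPR3 and LAMB1, LAMB2 and LAMC1 higher, and LAMA5 did not pass the test.

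As a description with no test, the tags of the 3 detected laminin beta genes were pooled within each library. LAMB3 made up 13.6%, 13.3% and 14.5% of them in sgITPR3 libraries, against 52.0%, 44.5% and 53.1% in sgCtrl libraries. LAMB1 made up 65.7 ± 1.02% in sgITPR3 and 35.9 ± 3.92% in sgCtrl (SD, n = 3 each), and LAMB2 20.5 ± 0.388% in sgITPR3 and 14.2 ± 0.900% in sgCtrl. These shares rest on 3969 to 5526 tags per library and are shares of tags, not of protein. Among the 5 laminin alpha genes, LAMA3 held 18.7 ± 2.41% of tags in sgITPR3 and 27.9 ± 0.645% in sgCtrl, and LAMA5 80.7 ± 2.51% in sgITPR3 and 71.9 ± 0.618% in sgCtrl. The alpha 1, alpha 2 and alpha 4 chain genes, LAMA1, LAMA2 and LAMA4, contributed at most 19 counts each to any library.

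Promoter windows are shown because both LM332 chain genes were lower together. RefSeq sequence of 300 bases (250 before to 50 after an annotated start, GRCh38.p14) was at hand for 26 of the 36 genes, in 33 windows. The motif of AP-1, the FOS and JUN transcription factors, was searched as TGANTCA on both strands. It occurred in 3 of the 33 windows (9.09%), beside 7.73% of all 34796 windows, so the share was near the background. Of the 6 lower genes with a window, ITGA2, ITGA6 and ITGA10 held no match. The windows with a match belonged to LAMB3, LAMA3 and ITGA5, the other lower genes, and were picked for printing because they held it. A link between the motif and the change in level was not tested. They are printed 5′ to 3′ with the match in capitals, followed by the window of LAMB1, which was higher and held no match.
LAMB3 promoter window (chr1:209651325-209651624, minus strand): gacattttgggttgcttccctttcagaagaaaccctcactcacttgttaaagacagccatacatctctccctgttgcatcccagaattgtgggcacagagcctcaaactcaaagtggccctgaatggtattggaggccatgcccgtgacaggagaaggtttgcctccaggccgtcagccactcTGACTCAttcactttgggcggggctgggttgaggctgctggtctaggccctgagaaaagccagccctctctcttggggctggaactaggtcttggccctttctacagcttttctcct
LAMA3 promoter window (chr18:23872770-23873069, plus strand): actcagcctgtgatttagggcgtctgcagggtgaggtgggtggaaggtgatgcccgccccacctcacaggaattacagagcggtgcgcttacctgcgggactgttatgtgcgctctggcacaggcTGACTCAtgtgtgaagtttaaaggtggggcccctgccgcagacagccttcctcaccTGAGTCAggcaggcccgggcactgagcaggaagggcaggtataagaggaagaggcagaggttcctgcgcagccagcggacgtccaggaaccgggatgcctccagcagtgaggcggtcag
ITGA5 promoter window (chr12:54419217-54419516, minus strand): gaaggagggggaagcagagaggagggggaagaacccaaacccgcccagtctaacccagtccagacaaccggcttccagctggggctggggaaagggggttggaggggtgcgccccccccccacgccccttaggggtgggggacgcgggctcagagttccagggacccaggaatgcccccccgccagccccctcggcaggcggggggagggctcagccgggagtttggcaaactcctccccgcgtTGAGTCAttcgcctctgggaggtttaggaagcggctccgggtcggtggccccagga
LAMB1 promoter window (chr7:108003112-108003411, minus strand): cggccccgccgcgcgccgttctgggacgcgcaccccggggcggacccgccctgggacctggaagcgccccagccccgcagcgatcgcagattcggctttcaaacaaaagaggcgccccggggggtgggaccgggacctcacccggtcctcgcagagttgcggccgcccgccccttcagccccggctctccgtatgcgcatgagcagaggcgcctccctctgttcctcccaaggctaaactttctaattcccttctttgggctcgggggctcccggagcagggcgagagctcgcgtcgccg

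Counted from the annotated start of each window, the first base of the match was at -67 in LAMB3, at -125 and -69 in LAMA3 and at -6 in ITGA5. The LAMA3 window, at 23872770 to 23873069, lay inside the gene, downstream of its outermost start at 23689443. No window at that outermost start was at hand. The LAMB3 window with the match, at 209651325 to 209651624, also lay inside its gene, whose outermost start is at 209652466. LAMB3 had 3 windows and only 1 of them held the match. A GC box (GGGCGG) occurred in 57.6% of the 33 windows and in 44.9% of all windows, an E-box (CACCTG) in 24.2% and 20.6%, and TATAAA in 6.06% and 11.6%. A match is a description of letters in these windows and says nothing about binding. No window was matched for ITGA3, ITGA7, ITGA9, ITGAL, ITGAX, ITGB2, ITGB3, ITGB4, LAMA1 and LAMC3.

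Of the 4 integrin chain genes of the LM332 receptors α6β4 and α3β1, ITGB4, ITGA6 and ITGA3 were lower and ITGB1 did not pass. ITGB4 (ENSG00000132470, chromosome 17, 75721328 to 75757818, plus strand), which encodes the hemidesmosomal beta 4 chain, was at 93.5, 89.4 and 102 CPM in sgITPR3 libraries and 146.5, 157 and 153 CPM in sgCtrl libraries. It was 1.61-fold lower with no overlap (log2 fold change -0.68 ± 0.0704 SE, adjusted p = 8.60e-06 by edgeR). ITGA6 (ENSG00000091409, chromosome 2, 172427354 to 172506282, plus strand), the alpha 6 partner of both beta 4 and beta 1, was at 287, 303 and 319 CPM in sgITPR3 libraries and 437, 392.5 and 440.1 CPM in sgCtrl libraries (log2 fold change -0.48 ± 0.0708 SE, adjusted p = 2.10e-04 by edgeR). ITGA3 (ENSG00000005884, chromosome 17, 50055968 to 50090481, plus strand), the alpha 3 partner of beta 1, was at 56.0, 53.0 and 62.7 CPM in sgITPR3 libraries and 87.4, 80.7 and 88.4 CPM in sgCtrl libraries (log2 fold change -0.58 ± 0.0780 SE, adjusted p = 9.99e-05 by edgeR). Every sgITPR3 library lay below every sgCtrl library for all 3 genes, and all 3 passed under each of the 13 alternatives.

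The remaining laminin-binding alpha chain moved the other way. ITGA7 (ENSG00000135424, chromosome 12, 55684568 to 55716043, minus strand), whose product is best known as the laminin receptor of muscle fibres, was at 41.7, 38 and 34.6 CPM in sgITPR3 libraries and 26.3, 20.2 and 24.4 CPM in sgCtrl libraries. It was 1.62-fold higher without overlap (log2 fold change 0.69 ± 0.107 SE, adjusted p = 3.14e-04 by edgeR). As a share of the tags of the 3 laminin-binding alpha genes, a description with no test, it held 9.60 ± 1.27% in sgITPR3 and 4.43 ± 0.342% in sgCtrl (SD, n = 3 each). Its annotated 3' end lies inside METTL7B on the opposite strand (log2 fold change 0.28, edgeR adjusted p = 0.0759). That of ITGB4 lies inside GALK1, which was higher (log2 fold change 0.57, edgeR adjusted p = 0.00221), that of LAMB1 inside DLD (0.18, edgeR adjusted p = 0.112), and that of LAMA5 inside ADRM1 (-0.15, edgeR adjusted p = 0.176). No source used here gives the strand setting of the counts, so reads of such pairs cannot be told apart. ITGA6 and ITGA9 also end inside antisense transcripts, AC078883.1 and ITGA9-AS1, which held 350 and 414 counts over all libraries.

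**Figure D2:**
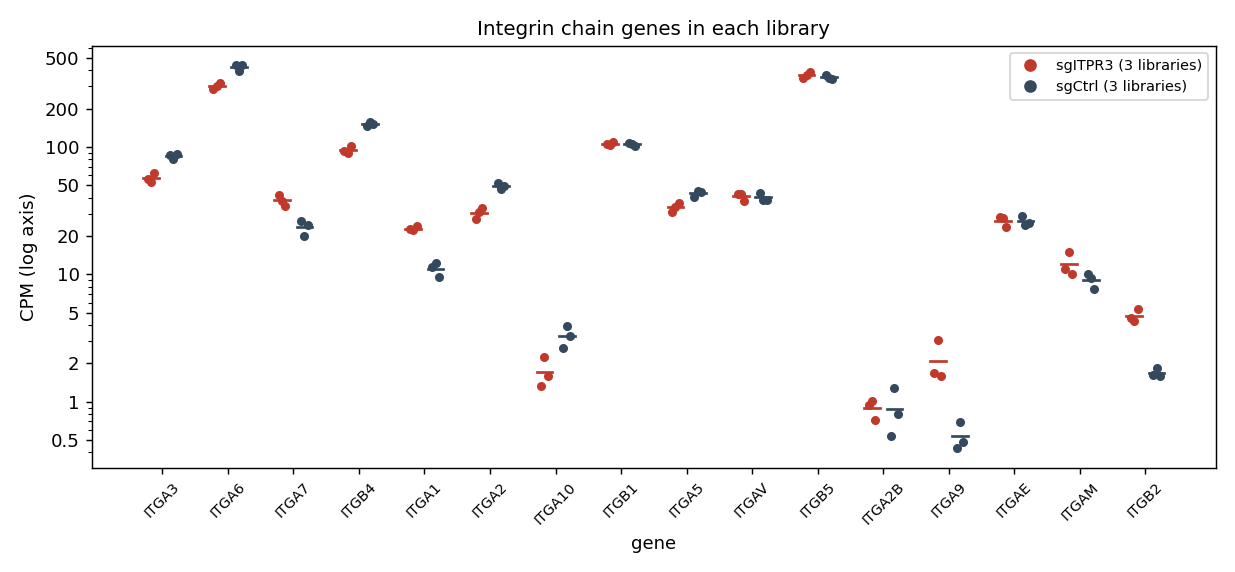
Levels of the 16 tested integrin genes, in CPM on a log axis, with a point per library and a line at each group mean (sgITPR3 left, sgCtrl right). ITGA3, ITGA6, ITGB4 and ITGA2 are lower in sgITPR3, ITGA7 and ITGA1 higher, and ITGB1, ITGAV and ITGB5 overlap between groups.

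The collagen receptor chains, which pair with beta 1, changed in opposite directions. ITGA1 (ENSG00000213949, chromosome 5, 52787896 to 52959210, plus strand), which encodes the alpha 1 chain, a receptor for basement membrane collagen IV, was at 22.6, 22.2 and 23.9 CPM in sgITPR3 libraries and 11.4, 12.4 and 9.503 CPM in sgCtrl libraries. It was 2.06-fold higher (log2 fold change 1.04 ± 0.114 SE, adjusted p = 1.50e-05 by edgeR). ITGA2 (ENSG00000164171, chromosome 5, 52989326 to 53094779, plus strand), which encodes the alpha 2 chain, a receptor for fibrillar collagen I, was at 27.5, 31.0 and 32.9 CPM in sgITPR3 libraries and 52.4, 46.4 and 49.5 CPM in sgCtrl libraries. It was 1.62-fold lower (log2 fold change -0.70 ± 0.0880 SE, adjusted p = 5.23e-05 by edgeR). Neither pair of groups overlapped, and both calls held in all 13 alternatives.

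ITGA1 and ITGA2 lie next to each other on chromosome 5 and on the same strand. The 17 other genes averaging 5 CPM or more within 5 Mb of ITGA1 had a median log2 fold change of 0.05. PELO, which lies inside ITGA1 on the same strand, did not pass (log2 fold change -0.29, edgeR adjusted p = 0.138). As a description with no test, ITGA1 made up 43.8%, 39.6% and 40.7% of the tags of the 4 collagen receptor alpha genes in sgITPR3 libraries, against 17.1%, 19.7% and 15.2% in sgCtrl libraries, of 1141 to 1383 tags per library. ITGA10 (ENSG00000143127, chromosome 1, 145891208 to 145910189, minus strand), whose alpha 10 chain is known from cartilage, was low, at 1.34, 2.23 and 1.598 CPM in sgITPR3 libraries and 2.63, 3.93 and 3.31 CPM in sgCtrl libraries (log2 fold change -0.93 ± 0.269 SE, adjusted p = 0.0218 by edgeR). Its call was lost without sgITPR3 replicate 1 (edgeR adjusted p = 0.0913), sgITPR3 replicate 3 (0.0664), sgCtrl replicate 2 (0.0592) or sgCtrl replicate 3 (0.0519). ITGA11, whose alpha 11 chain is known from fibroblasts, had 5, 15 and 7 counts in sgITPR3 libraries and 3, 3 and 5 counts in sgCtrl libraries and was not tested.

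**Figure D3:**
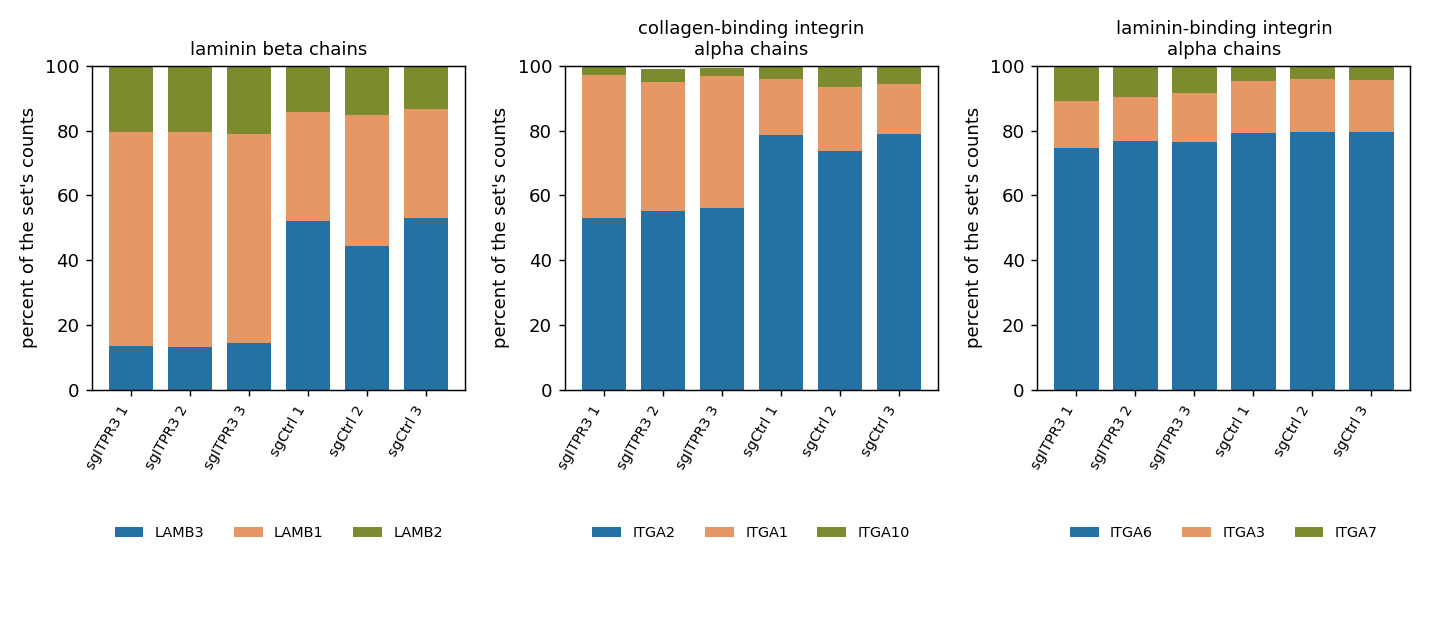
Share of tags, in percent, held by each gene within 3 sets of chains, with a bar for each sgITPR3 library (left) and sgCtrl library (right). LAMB3 holds 13.3% to 14.5% of laminin beta tags in sgITPR3 and 44.5% to 53.1% in sgCtrl, and ITGA1 39.6% to 43.8% of collagen receptor alpha tags in sgITPR3 and 15.2% to 19.7% in sgCtrl. ITGA11, the remaining collagen receptor alpha gene, is not drawn and fills each bar to 100%.

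ITGB1 (ENSG00000150093, chromosome 10, 32900319 to 33005792, minus strand), which encodes the beta 1 chain shared by the collagen, laminin and fibronectin receptors, did not pass. It was at 106, 104 and 109 CPM in sgITPR3 libraries and 107.5, 106.5 and 102.5 CPM in sgCtrl libraries (log2 fold change 0.01 ± 0.0641 SE, adjusted p = 0.899 by edgeR). The groups overlapped. Of the 9 tested alpha genes whose products can pair with beta 1, ITGA1, ITGA7 and ITGA9 were higher, ITGA2, ITGA3, ITGA5, ITGA6 and ITGA10 were lower, and ITGAV did not pass. Their log2 fold changes ranged from -0.93 for ITGA10 to 1.97 for ITGA9.

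Among receptors for the RGD peptide of fibronectin, vitronectin and latent TGF-beta, 1 of 4 tested genes was lower and 3 did not pass. ITGA5 (ENSG00000161638, chromosome 12, 54395261 to 54419460, minus strand), the alpha 5 chain of the main fibronectin receptor, was at 30.7, 34.1 and 36.4 CPM in sgITPR3 libraries and 40.2, 45.5 and 44.6 CPM in sgCtrl libraries (log2 fold change -0.37 ± 0.0880 SE, adjusted p = 0.00793 by edgeR). Without sgITPR3 replicate 1, its lowest library, its log2 fold change was -0.30 and the call was lost (edgeR adjusted p = 0.0504). ITGAV (ENSG00000138448, chromosome 2, 186590065 to 186680901, plus strand), the alpha V chain gene, overlapped between groups at 42.9, 42.8 and 37.9 CPM in sgITPR3 libraries and 43.8, 38.7 and 38.7 CPM in sgCtrl libraries (log2 fold change 0.03 ± 0.0851 SE, adjusted p = 0.839 by edgeR). ITGB5 (ENSG00000082781, chromosome 3, 124761948 to 124901418, minus strand), whose beta 5 chain pairs with alpha V to bind vitronectin, also overlapped, at 348, 371 and 387 CPM in sgITPR3 libraries and 369, 349 and 345 CPM in sgCtrl libraries (log2 fold change 0.06 ± 0.0667 SE, adjusted p = 0.582 by edgeR).

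The other partners of alpha V were scarce. ITGB6, the beta 6 chain gene of an epithelial activator of TGF-beta, had 11, 10 and 4 counts in sgITPR3 libraries and 1, 8 and 6 counts in sgCtrl libraries. ITGB8, whose beta 8 chain also takes part in activating TGF-beta, had 5, 22 and 36 counts in sgITPR3 libraries and 0, 0 and 3 counts in sgCtrl libraries. It fell short of the count filter, and the ratio of its summed counts per scaled library, 63 in sgITPR3 against 3 in sgCtrl, was 17.9 (exact 95% interval 5.86 to 89.3, counting error only). Without the filter ITGB8 was higher in sgITPR3 (edgeR adjusted p = 3.47e-06). In that fit the edgeR adjusted p of LAMB3 was 6.66e-129, against 9.10e-10 in the main test. P-values without the filter are therefore not comparable with the others given here, and ITGB8 varied widely between the sgITPR3 libraries. ITGB3, the beta 3 chain gene, had 0 counts in all 6 libraries. Its annotated 3' end lies inside AC068234.1 on the same strand, which had 0 counts too. How reads lying in both genes were counted was not examined, so the 0 counts set no upper limit on the level of ITGB3. ITGA8, whose alpha 8 chain binds nephronectin, had 2, 1 and 0 counts in sgITPR3 libraries and 0 in each sgCtrl library. ITGA2B, the platelet chain gene, was measured at 0.95, 1.01 and 0.722 CPM in sgITPR3 libraries and 0.538, 1.29 and 0.801 CPM in sgCtrl libraries and did not pass (log2 fold change 0.03 ± 0.408 SE, adjusted p = 0.968 by edgeR). The summed level of 5 platelet markers was 2.10 to 2.89 CPM in sgITPR3 and 1.56 to 2.72 CPM in sgCtrl, and PF4, PPBP and GP9 had no counts.

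Of the alpha 4 and alpha 9 chains, which bind VCAM1, tenascin C and related ligands, only ITGA9 was tested. ITGA9 (ENSG00000144668, chromosome 3, 37452115 to 37823514, plus strand) was low, at 1.68, 3.04 and 1.598 CPM in sgITPR3 libraries (39, 75 and 31 counts) and 0.430, 0.696 and 0.480 CPM in sgCtrl libraries (8, 14 and 9 counts). The groups did not overlap and it was 3.91-fold higher (log2 fold change 1.97 ± 0.385 SE, adjusted p = 0.00204 by edgeR), and it passed in all 13 alternatives. ITGA4 had 0, 0 and 3 counts in sgITPR3 libraries and 0 in each sgCtrl library.

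**Figure D4:**
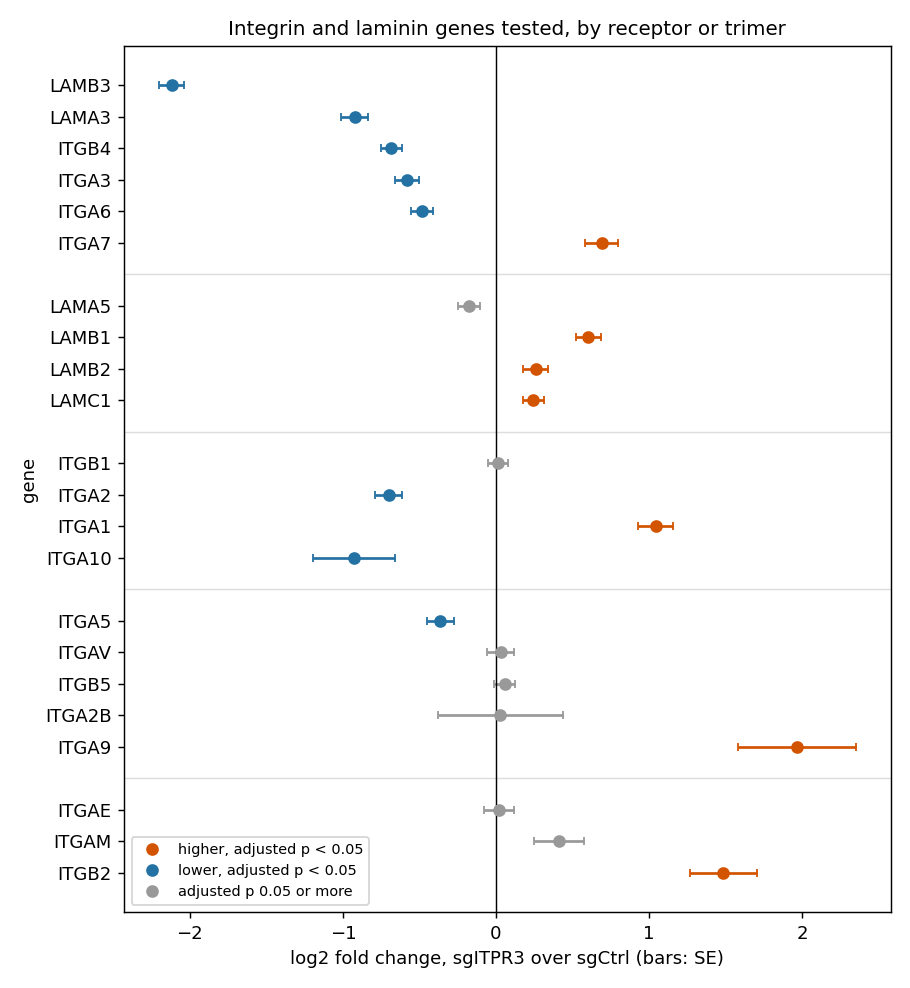
Log2 fold change (sgITPR3 over sgCtrl) of the 22 tested genes, with bars of 1 SE and colour for the edgeR call. From the top, the blocks hold LM332 and the laminin receptors, the other laminins, beta 1 with the collagen receptors, the RGD receptors with ITGA9, and the leukocyte integrins. LAMB3 at -2.12 and ITGA9 at 1.97 mark the ends of the range.

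Leukocyte integrins were mostly scarce. ITGB2 (ENSG00000160255, chromosome 21, 44885953 to 44931989, minus strand), the beta 2 chain gene of leukocyte adhesion receptors, was at 4.53, 4.33 and 5.36 CPM in sgITPR3 libraries (105, 107 and 104 counts) and 1.61, 1.84 and 1.602 CPM in sgCtrl libraries (30, 37 and 30 counts). It was 2.80-fold higher with no overlap (log2 fold change 1.48 ± 0.218 SE, adjusted p = 2.08e-04 by edgeR), and passed in all 13 alternatives. Of its alpha partners, ITGAL had 1 count in the 6 libraries together. ITGAX had 11, 13 and 13 counts in sgITPR3 libraries and 7, 8 and 5 counts in sgCtrl libraries. ITGAM, the alpha M chain gene, did not pass (log2 fold change 0.41 ± 0.164 SE, adjusted p = 0.0827 by edgeR), at 10.9, 15.1 and 10 CPM in sgITPR3 libraries and 10.1, 9.40 and 7.69 CPM in sgCtrl libraries. Without sgITPR3 replicate 3 its log2 fold change was 0.53 and it passed (edgeR adjusted p = 0.0489).

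ITGAE encodes the alpha E chain, which is carried by intraepithelial lymphocytes and binds E-cadherin. ITGAE overlapped at 28.1, 27.7 and 23.4 CPM in sgITPR3 libraries and 28.6, 24.6 and 25.3 CPM in sgCtrl libraries (log2 fold change 0.02 ± 0.0992 SE, adjusted p = 0.917 by edgeR). Its beta 7 partner ITGB7 had 9, 24 and 7 counts in sgITPR3 libraries and 4, 2 and 1 counts in sgCtrl libraries, a ratio of 4.88 (exact 95% interval 2.16 to 12.9, counting error only), and ends inside ZNF740 on the opposite strand. Of the 9 leukocyte markers, 3 were tested, and the summed level of all 9 was 44.2 to 71.1 CPM in sgITPR3 and 79.1 to 85.2 CPM in sgCtrl. Most of it was CD74, at 41.4 to 67.6 CPM in sgITPR3 and 75.2 to 81.8 CPM in sgCtrl. PTPRC, the pan-leukocyte marker CD45, had 7 counts in sgITPR3 replicate 1 and 0 in the other 5 libraries, and TYROBP had 1 count in all 6 libraries together. The part of other cell types in the ITGB2 result was not tested.

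The other laminin chain genes had too few counts to be tested. LAMA1 had 9, 5 and 8 counts in sgITPR3 libraries and 0, 6 and 5 counts in sgCtrl libraries. LAMA2, the muscle chain gene, had at most 1 count in any library. LAMA4, known from endothelium, had 7, 19 and 3 counts in sgITPR3 libraries and 5, 3 and 3 counts in sgCtrl libraries. LAMC3 had 21, 13 and 2 counts in sgITPR3 libraries and 1, 3 and 0 counts in sgCtrl libraries, with overlapping groups. Its ratio of summed counts was 7.68 (exact 95% interval 2.75 to 29.7, counting error only). Such intervals were computed only for LAMC3, ITGB8 and ITGB7, and not for other untested genes with more counts in sgITPR3, such as LAMA4 and ITGA11. They leave out the spread between libraries and are no test of a change. LAMB4 had 0 counts in all 6 libraries. The summed level of 5 endothelial markers, as human gene rows, was 0.202 to 0.670 CPM in sgITPR3 and 0.348 to 0.645 CPM in sgCtrl. It does not measure how many mouse endothelial cells remained. The summed level of 7 fibroblast and stellate cell markers was 21.0 to 23.0 CPM in sgITPR3 and 19.1 to 20 CPM in sgCtrl, mostly ACTA2 and COL1A1, with LUM at 0 and DCN at 5 counts or fewer.

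Genes on the same chromosome were set beside their neighbours. On chromosome 17, ITGA3 and ITGB4 were lower, while the 686 other genes of that chromosome averaging 5 CPM or more had a median log2 fold change of 0.17. On chromosome 1, where that median was -0.13, LAMB3 was lower and LAMC1 higher. On chromosome 18, that of LAMA3, it was -0.14, and within 5 Mb of LAMA3 it was -0.11.

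Of 40 tested genes of intracellular integrin partners in 3 lists, 7 were lower, 2 were higher and 31 did not pass, and the share called, 22.5%, was near the 23.5% of all genes tested. Of 19 linkers and activators, 3 were lower, 1 was higher and 15 did not pass, with a median log2 fold change of -0.15. FERMT1, which encodes kindlin-1, an epithelial activator of integrins, was at 96.1 ± 5.56 CPM in sgITPR3 and 147 ± 6.97 CPM in sgCtrl (log2 fold change -0.61, edgeR adjusted p = 2.24e-05). VCL, encoding vinculin, which joins talin to actin, was at 66.4 ± 1.92 CPM in sgITPR3 and 99.5 ± 2.98 CPM in sgCtrl (edgeR adjusted p = 2.13e-05). ZYX, encoding the actin regulator zyxin, was lower by a small margin with overlapping groups (log2 fold change -0.31, edgeR adjusted p = 0.0422) and lost its call after adjusting for ALB (log2 fold change -0.04, edgeR adjusted p = 0.852) and without any single library except sgCtrl replicate 2 (edgeR adjusted p up to 0.160). The gene that was higher, LIMS2, was named after its values were seen and lay at 2.14 ± 0.0792 CPM in sgITPR3 and 1.09 ± 0.120 CPM in sgCtrl (log2 fold change 0.96, edgeR adjusted p = 0.0246). It did not pass after adjusting for ALB (edgeR adjusted p = 0.177) or without any single library except sgCtrl replicate 2 (edgeR adjusted p from 0.0569 to 0.0944). Talin, encoded by TLN1, the linker that switches integrins on, did not pass (log2 fold change 0.03).

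Of 15 signalling kinases and adaptors, 3 were lower (20% called, against 23.5% of all genes), 0 were higher and 12 did not pass. PXN, encoding the focal adhesion scaffold paxillin, was at 52.8, 54.4 and 53.6 CPM in sgITPR3 libraries and 101.7, 83.8 and 89.9 CPM in sgCtrl libraries (log2 fold change -0.78 ± 0.079 SE, adjusted p = 7.19e-06 by edgeR). PTK2B, the kinase PYK2, was at 37.3 ± 1.78 CPM in sgITPR3 and 48.3 ± 1.53 CPM in sgCtrl (edgeR adjusted p = 0.00275), and TGFB1I1, the paxillin relative HIC-5, at 37.8 ± 1.15 CPM in sgITPR3 and 47.4 ± 4.76 CPM in sgCtrl (edgeR adjusted p = 0.0125). The TGFB1I1 call was lost after adjusting for ALB (edgeR adjusted p = 0.191) and without sgITPR3 replicate 1, sgITPR3 replicate 2 or sgCtrl replicate 1 (edgeR adjusted p up to 0.0537). PTK2, the focal adhesion kinase gene, did not pass (log2 fold change 0.04). Of 6 tested genes of integrin inhibition and traffic, SNX17, a recycling adaptor, was lower (log2 fold change -0.42, edgeR adjusted p = 0.00188), SWAP70 was higher (0.29, edgeR adjusted p = 0.0261) and 4 did not pass. The SWAP70 call was lost without sgITPR3 replicate 2 or 3 or sgCtrl replicate 1 or 2 (edgeR adjusted p from 0.0790 to 0.105).

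Of 8 tested hemidesmosome and tetraspanin genes, 3 were lower, 0 were higher and 5 did not pass (37.5% called, against 23.5% of all genes). The tetraspanins CD9 and CD82, which sit beside integrins in the membrane, were at 759 ± 73.4 CPM and 140 ± 3.44 CPM in sgITPR3, against 1250 ± 282 CPM and 214 ± 33.6 CPM in sgCtrl (edgeR adjusted p = 6.69e-04 and 2.66e-04). DST, the gene of the hemidesmosome plakin BPAG1 and its isoforms, was lower (log2 fold change -0.36, edgeR adjusted p = 0.0201) and lost its call after adjusting for ALB (edgeR adjusted p = 0.216) and without sgITPR3 replicate 1 or 2 or sgCtrl replicate 1 or 3 (edgeR adjusted p from 0.0532 to 0.101). PLEC, encoding plectin, which ties integrin α6β4 to keratin, did not pass (log2 fold change -0.04), and CD151 did not pass either (log2 fold change -0.18, edgeR adjusted p = 0.0645).

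Other matrix partners were mixed. The share called was 25.0% among basement membrane genes and 25.0% among non-integrin laminin receptors and their complexes. Both were near the 23.5% of all genes tested. Of 8 tested basement membrane genes, NID1, encoding the laminin-binding linker nidogen 1, was higher (21.3 ± 3.17 CPM in sgITPR3, 13.8 ± 2.96 CPM in sgCtrl, edgeR adjusted p = 0.00655), SPARC was lower (211 ± 14.4 CPM in sgITPR3, 266 ± 10.2 CPM in sgCtrl, edgeR adjusted p = 0.00327) and 6 did not pass. Adjusted for ALB, NID1 no longer passed (edgeR adjusted p = 0.0505). Of 4 tested genes of non-integrin laminin receptors and their complexes, SGCB, a sarcoglycan gene, was higher (log2 fold change 0.54, edgeR adjusted p = 6.88e-04). The other 3 did not pass, among them DAG1, the dystroglycan gene (log2 fold change 0.03).

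Of 14 tested genes of other integrin ligands, 4 were higher, 3 were lower and 7 did not pass. The share called, 7 of 14, was above the 23.5% of all genes tested. The list is short and was chosen with earlier results known, so this difference in share is a description. FN1, encoding fibronectin, was at 38.2, 32.3 and 31.4 CPM in sgITPR3 libraries and 18.6, 20.6 and 17.3 CPM in sgCtrl libraries (log2 fold change 0.85 ± 0.103 SE, adjusted p = 3.80e-05 by edgeR). TNC, encoding tenascin C, a ligand of alpha 9, was at 5.66, 4.29 and 5.72 CPM in sgITPR3 libraries and 41.4, 28.6 and 31.1 CPM in sgCtrl libraries (log2 fold change -2.69 ± 0.155 SE, adjusted p = 2.92e-08 by edgeR). ICAM1, encoding a ligand of the beta 2 integrins, was at 6.61, 5.87 and 6.65 CPM in sgITPR3 libraries and 17.3, 15.1 and 18.0 CPM in sgCtrl libraries (log2 fold change -1.40 ± 0.126 SE, adjusted p = 2.12e-06 by edgeR). The groups did not overlap for any of these 3 genes. LTBP2, a fibrillin relative, was lower (log2 fold change -0.69, edgeR adjusted p = 0.00162). LTBP1, which tethers latent TGF-beta, COL1A1 and NPNT, the nephronectin gene named after its values were seen, were higher, with log2 fold changes of 0.58, 0.48 and 1.85 (edgeR adjusted p = 0.0153, 0.0331 and 0.0212). Adjusted for ALB, COL1A1, NPNT and LTBP2 did not pass (edgeR adjusted p = 0.214, 0.223 and 0.0535). NPNT, at 1 to 38 counts per library, also lost its call without sgITPR3 replicate 1 (edgeR adjusted p = 0.0544), sgITPR3 replicate 2 (0.113) or sgCtrl replicate 3 (0.0632), and was not tested under the filter of 1 CPM in 3 libraries. The COL1A1 call was also lost without any single library except sgITPR3 replicate 3 (edgeR adjusted p from 0.0573 to 0.132), and that of LTBP1 without sgITPR3 replicate 2 (0.0704) or sgCtrl replicate 3 (0.0521).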

How the data were processed

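The values used are raw gene counts deposited by the authors for 6 libraries (3 per group). Per the labels' protocols, polyadenylated RNA was made into libraries with the Lexogen 3' FWD kit. Per the submitters' processing notes, STAR 2.6.0a, featureCounts 1.6.3, DESeq2 and the build GRCh38 were used. No source used here gives the annotation release, the strand setting or how mouse and multiply aligned reads were handled. Groups and replicate numbers follow the sample titles.

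Counts were analysed in R 4.3.3 with edgeR 4.0.16. Genes were kept by filterByExpr (minimum count 10), TMM scaled the libraries (factors 0.961 to 1.03), and the quasi-likelihood F test compared sgITPR3 with sgCtrl. P-values were adjusted by the Benjamini-Hochberg method over the 15804 genes tested, and an SE is the absolute log2 fold change over the square root of F. Positions are those of GENCODE 29 on GRCh38. The procedure was tested on simulated data. Libraries of a group differed by a chi-square per degree of freedom of 5.93 to 11.6, more than counting error alone would give. None is therefore a plain recount of another. The value cannot show whether libraries share an animal or an RNA sample.

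The 36 genes and the lists beside them were chosen with earlier results of these data known. All 36 are named. From each other list, up to 3 higher and 3 lower genes with the smallest p and a mean of at least 5 CPM are named. TLN1, PTK2, PLEC, CD151 and DAG1, which did not pass, were added after their values were seen, as were LIMS2 and NPNT. Alternatives were RLE scaling, 2 other count filters, a replicate block, DESeq2 1.42.0, limma-voom (limma 3.58.1), the ALB level as a covariate, and leaving out each library.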

Additional observations from a re-analysis of the deposited data

How the results depend on the processing

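Of the 13 alternatives, RLE scaling, a filter of 1 CPM in 3 libraries, DESeq2 and limma-voom left 15 integrin and laminin genes called. With the ALB level as a covariate 13 were called (5 higher, 8 lower). Leaving out a library gave 13 to 16 (5 to 9 higher, 6 to 8 lower). Without a low-count filter 19 were called and 11 were higher, adding ITGAM, ITGB8 (edgeR adjusted p = 3.47e-06), LAMC3 (0.0132) and ITGB7 (0.0333). P-values of that fit are not comparable with those of the main test, and ITGB8, LAMC3 and ITGB7 rest on few counts. Replicate numbers showed no clear pairing of the libraries. Correlations of same-numbered deviations were -0.0503, 0.013 and 0.0977, and those of differently numbered ones ranged from -0.118 to 0.115. A weak shared effect cannot be seen in so few libraries. With the replicate block 15 integrin and laminin genes and 3877 of all genes were called. Over all genes the calls fell to 1985 with ALB as a covariate (1001 higher, 984 lower), and ranged from 2331 without sgITPR3 replicate 2 to 4261 without sgCtrl replicate 2 (1135 to 2121 higher, 1196 to 2140 lower). Of genes that had not passed, near-zero log2 fold changes changed sign when a library was left out: ITGB1 ranged from -0.0088 to 0.0279, ITGAV from -0.0037 to 0.0859, ITGAE from -0.0288 to 0.0939 and ITGA2B from -0.23 to 0.42, with -0.43 for ITGA2B under the ALB covariate. Counts of the other lists are small and moved as follows. Hemidesmosome and tetraspanin genes had 1 higher without a filter and by DESeq2, and 0 to 2 when a library was left out. Linkers and activators had 5 lower without a filter, with the replicate block, by DESeq2 and by limma-voom, and 2 to 6 when a library was left out. They had 0 higher with ALB as a covariate and 0 to 1 when a library was left out. Signalling genes had 1 higher with the replicate block and 0 to 1 when a library was left out. Inhibition and traffic genes had 0 to 1 higher and 1 to 2 lower when a library was left out. Basement membrane genes had 2 higher without a filter, 0 with ALB as a covariate and 1 to 2 when a library was left out, and 2 lower with the replicate block and 1 to 2 when a library was left out. Other ligands had 2 higher with ALB as a covariate and 1 to 4 when a library was left out. Where a call ended or appeared, the cause was not tested. Depth limits the 14 genes with too few counts, none of which exceeded 36 counts in any library.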
